A study of Homo sapiens with 6 samples.

Results

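The DNA replication machinery was followed here as 44 genes of the 58233 genes listed for each library. The 44 were chosen by name, with earlier results of these data known. They fall into 9 roles: the origin recognition complex, the helicase loaders, the MCM2-7 helicase, the factors that activate it, the sliding clamp with its loader, the polymerases with primase, the enzymes that mature Okazaki fragments, the single-strand binding protein, and the enzymes that supply deoxynucleotides. All 44 were found in each table, and all 44 had a mean of at least 1 FPKM (fragments per kilobase of transcript per 1000000 mapped fragments) over the 6 libraries, as had 12853 genes in all.

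The cells were Huh7, an established line from a human hepatocellular carcinoma. The 3 control libraries came from cells given an empty control plasmid, and the 3 TP53TG1 libraries from cells given a plasmid that overexpresses TP53TG1, a long noncoding RNA gene induced by p53. No time after transfection, selection or transfection efficiency is given in the labels, so the share of transfected cells in each library is unknown. The labels are silent on whether a group's 3 replicates were grown separately, and p-values here measure the spread between these libraries, which may be technical. In bulk RNA a lower share of cells in S phase and less RNA of a gene in each cell cannot be told apart.

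Eukaryotic DNA replication begins in G1, when the origin recognition complex, CDC6 and CDT1 load MCM2-7 rings onto origins. In S phase CDC45 and GINS join the rings to form the active helicase, polymerase alpha-primase lays down primers, and polymerases epsilon and delta extend them on the clamp PCNA, which the RFC complex loads. Many of these genes are known targets of E2F factors and are transcribed mainly around the G1/S boundary, so their summed RNA is widely used as a mark of cells about to enter or passing through S phase.

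The letters that E2F factors are known to read could be looked for in front of the members that have a RefSeq promoter window (GRCh38.p14), here the 250 bases before the start site. Such a window was at hand for 38 of the 44 genes. An E2F-type motif, TTTCCCGC, TTTCGCGC, TTTGCCGC or TTTGGCGC on either strand with overlapping matches counted, stood in a window of 13 of these 38 (34.2%), against 3.40% of 27305 genes with windows of the same length. The CCAAT pentamer, read on both strands, stood in 60.5% of the 38 and in 37.0% of all genes. Windows differ in base composition, with a median GC content of 65.0% for the members and 58.0% for all genes, and a match is a description of letters, not a binding site. The stretches below show the motif in capitals, 5' to 3', in members of the helicase and the clamp. They were chosen because their motif lies outside every annotated exon, and bases that a GENCODE exon holds are left off.
MCM3: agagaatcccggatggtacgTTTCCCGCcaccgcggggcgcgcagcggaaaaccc
MCM6: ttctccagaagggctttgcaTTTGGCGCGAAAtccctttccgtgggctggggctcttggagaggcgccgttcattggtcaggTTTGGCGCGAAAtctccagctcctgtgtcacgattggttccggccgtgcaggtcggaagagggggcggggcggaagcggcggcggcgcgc
PCNA: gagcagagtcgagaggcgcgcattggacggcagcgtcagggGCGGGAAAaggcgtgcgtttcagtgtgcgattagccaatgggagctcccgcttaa

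The MCM3 stretch is chr6:52284882-52284936, the MCM6 stretch chr2:135876444-135876615 and the PCNA stretch chr20:5126627-5126722, all on the minus strand. MCM6 carries 4 matches in 2 overlapping pairs, TTTGGCGC on the printed strand and TTTCGCGC on the opposite one. In PCNA the motif is on the opposite strand, so the capitals read as its reverse complement.

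TP53TG1 itself read 10.57, 5.25 and 6.15 FPKM in control replicates 1, 2 and 3, and 69.83, 134.21 and 70.48 FPKM in TP53TG1 replicates 1, 2 and 3. All TP53TG1 libraries were above all controls, at a log2 difference of 3.46 ± 0.381 (SE, n = 3 per group, limma with Benjamini-Hochberg adjusted p = 0.0573). Summed FPKM ranged from 599081 in TP53TG1 replicate 1 to 890541 in control replicate 1, and the lowest non-zero values put the depth at about 15800000 to 21200000 fragments. TP53TG1 replicate 1 stood apart: its median-of-ratios factor was 0.615, against 0.994 to 1.19 for the other 5 libraries, and 67.5% of all tested genes had their lowest FPKM there. Unscaled log2 differences had a median of -0.35 over all tested genes, -0.12 without TP53TG1 replicate 1, -0.16 without both libraries numbered 1, and -0.01 with all 6 after scaling. Of the hepatocyte markers, HNF4A lay between 2.57 and 14.98 FPKM, AFP between 0.63 and 3.49 and ALB between 0.53 and 1.22. Of 5 leukocyte markers 2 had a mean of at least 1 FPKM: CD68 lay between 32.43 and 65.16 and CD14 between 0.36 and 2.6, while PTPRC reached 0.13 and MS4A1 was at 0 in all 6. Of 4 endothelial markers 2 did, KDR (0.88 to 6.4) and PECAM1 (1.02 to 5.72), while CDH5 reached 0.03 and VWF 0.17. Summed, the leukocyte markers came to 33.1 to 65.8 FPKM and the endothelial ones to 1.92 to 12.2, lowest in TP53TG1 replicate 1. The 5 fibroblast markers summed to 22.6 FPKM in TP53TG1 replicate 1 and to 5.14 to 10.4 in the others, and their part in the results was not tested.

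No replication gene passed the test between the groups. In the limma fit on log2(FPKM + 1), 0 of 44 had a Benjamini-Hochberg adjusted p under 0.05, where 0.00778% of all tested genes did. The lowest adjusted p of a member was 0.748, 0 members had an unadjusted p under 0.05 (302 genes did in all), and standard errors ran from 0.260 to 0.860 on the log2 scale. With the replicate number as a block, 0 of 44 passed against 1.49% of all tested genes (lowest member adjusted p = 0.491, limma). After median-of-ratios scaling 0 passed against 0.0156%, and with both 0 passed against 0.0469%, where only GINS2 came to an unadjusted p of 0.05 (limma, adjusted p = 0.896). In simulated data of this size the fit recovered 34.3% of genes changed by 1 on the log2 scale and 97.0% of those changed by 2, and 10.5% of its calls were false. With the replicate block it recovered 23.9% and 95.5%, with 2.7% false. Whether that recovery holds for these 6 libraries was not tested. In them TP53TG1 itself did not pass, at a log2 difference of 3.46 ± 0.381 (SE, n = 3 per group, limma adjusted p = 0.0573). The median standard error of the members was larger, at 0.451. At the standard errors of these members, a 2-fold change in a single member would have been missed in the fit without the block. Much larger changes could have been missed too.

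What the members shared was a dependence on the library. In FPKM, 42 of 44 were lowest in TP53TG1 replicate 1, against 67.5% of all tested genes. Their summed FPKM was 1454, 2124 and 1710 in the controls and 828, 1883 and 2441 in the TP53TG1 libraries, which is 0.163, 0.312, 0.256, 0.138, 0.303 and 0.390% of all FPKM. The FPKM sum was thus lowest and highest within the TP53TG1 group, and the groups overlapped. Scaled, the sums were 1300, 1785 and 1441 in the controls and 1346, 1686 and 2456 with TP53TG1. The lowest was then control replicate 1, the highest was still TP53TG1 replicate 3, and the groups still overlapped. After scaling, 32 of 44 members (72.7%) were highest of all 6 libraries in TP53TG1 replicate 3, against 20.4% of all tested genes. Of the fitted differences, 37 of 44 lay above the all-gene median (50.0% by construction), with a list median 0.24 higher on the log2 scale. Without TP53TG1 replicate 3 that count was 21 of 44, and without control replicate 1 it was 24.

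**Figure D1:**
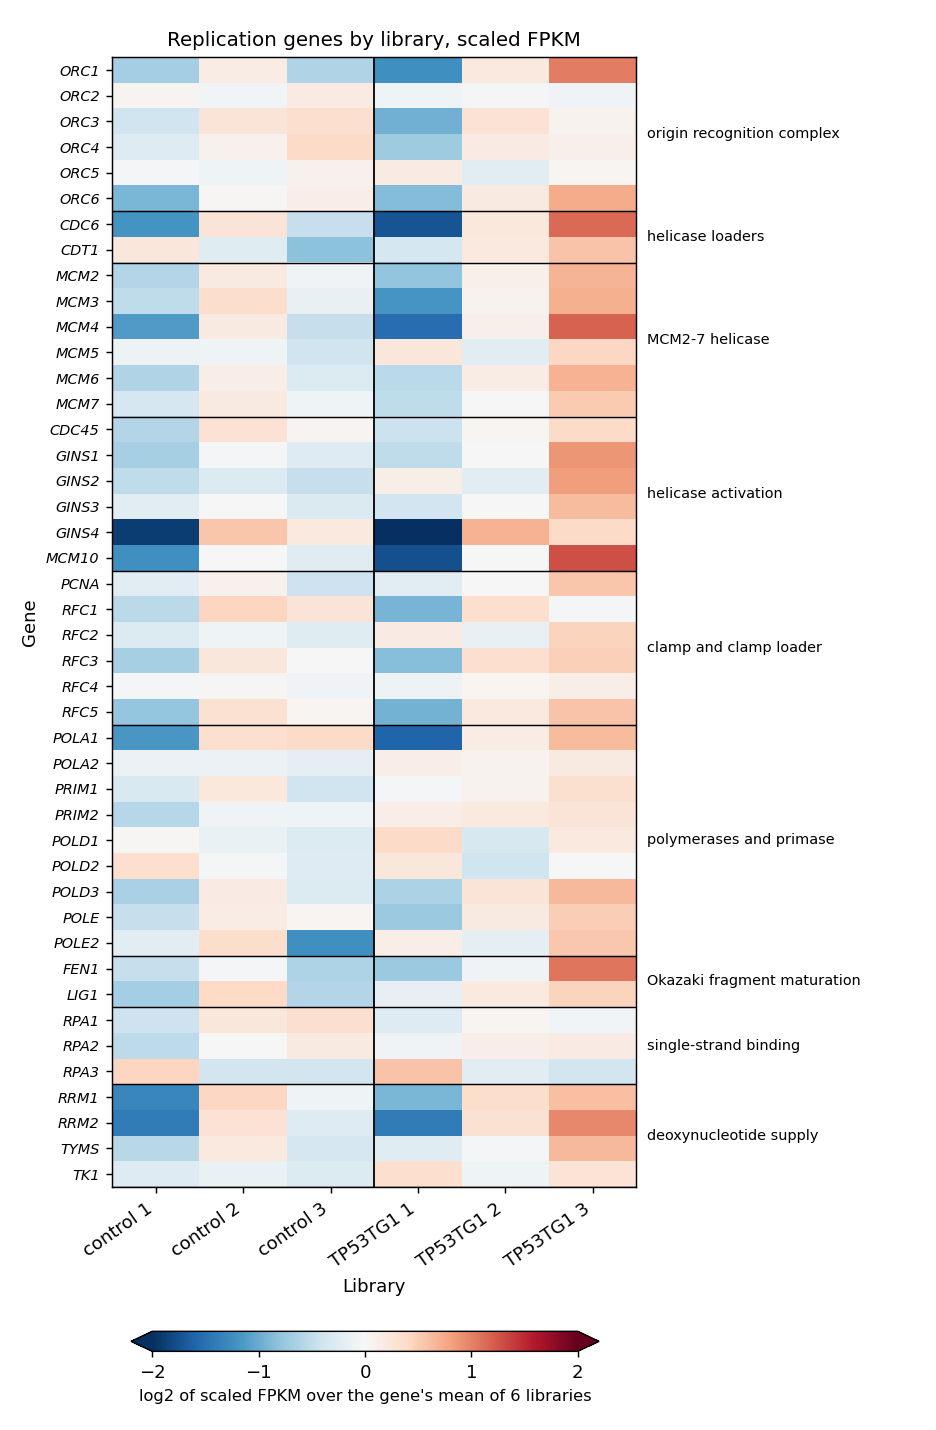
Scaled FPKM of the 44 replication genes (rows, grouped by role) in the 6 libraries (columns), as log2 of the value over the gene's mean of the 6, with colours ending at -2 and 2. TP53TG1 replicate 3 is the highest column for 32 of 44 genes, and blue is deepest in the columns numbered 1, in GINS4, MCM10, RRM2 and CDC6 for example, while RPA3 is red there.

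Few members separated the groups. In FPKM 2 members, ORC2 and ORC5, were lower in every TP53TG1 library than in any control (13.3% of all tested genes were), and 0 were higher (0.428%). After scaling 0 were lower (2.14%) and 4 were higher, against 1.92% of all tested genes: GINS2, POLA2, PRIM2 and TK1. The adjusted p of each of the 4 was 1.00 in the scaled limma fit, and in FPKM the groups of all 4 overlapped.

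The origin recognition complex marks where replication can start, and its members differed from each other. Values by role are FPKM before scaling unless said otherwise, where 42 of 44 members were lowest in TP53TG1 replicate 1, against 20 after scaling. ORC5, an ATPase-fold subunit, read 38.53, 39.34 and 44.34 FPKM in the controls and 24.21, 33.48 and 35.82 in the TP53TG1 libraries, in order of replicate number. The groups did not overlap before scaling and did overlap after it. Its log2 difference was -0.39 ± 0.280 (SE, n = 3 per group, limma adjusted p = 0.748), or -0.04 relative to the all-gene median.

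ORC6, the smallest subunit, read 20.37, 41.64 and 44.75 FPKM in the controls and 11.59, 43.61 and 57.3 with TP53TG1. Both libraries numbered 1 were low, and the groups overlapped (35.6 ± 13.3 against 37.5 ± 23.5 FPKM, SD, n = 3, limma adjusted p = 0.910). ORC1, the subunit whose level is known to follow the cell cycle, was the scarcest in every library but TP53TG1 replicate 3, with 5.1, 9.59, 5.7, 1.92, 9.33 and 14.84 FPKM over controls 1 to 3 and then TP53TG1 replicates 1 to 3. Its value in TP53TG1 replicate 3 was the highest of the 6. The core subunits ORC2, ORC3 and ORC4 were highest in control replicate 3 and lowest in TP53TG1 replicate 1, with ranges of 5.22 to 12.01, 2.66 to 12.73 and 8.51 to 34.74 FPKM.

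CDC6 and CDT1 bring the helicase to the origin complex, and both were highest in TP53TG1 replicate 3. CDT1 read 22.75, 17.44 and 11.63 FPKM in the controls and 8.32, 22.07 and 25.63 with TP53TG1. In FPKM the TP53TG1 group held its lowest and its highest value, while after scaling the lowest was control replicate 3, and the groups overlapped either way (17.3 ± 5.56 against 18.7 ± 9.14 FPKM, SD, n = 3, limma adjusted p = 0.985). CDC6, an ATPase of the loading reaction, read 6.75, 19.72 and 12.03 FPKM in the controls and 2.59, 17.98 and 30.16 with TP53TG1. Its extremes, too, were both in the TP53TG1 group.

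The 6 MCM genes encode the ring that unwinds DNA at the fork. MCM7, on chromosome 7 at 100092728 to 100101940 (GRCh38, minus strand), had the highest mean of all 44 members and read 188.77, 287.07 and 239.53 FPKM in the controls and 93.06, 236.87 and 305.04 with TP53TG1. The lowest and the highest library were again both in the TP53TG1 group (238 ± 49.2 against 212 ± 108 FPKM, SD, n = 3, limma adjusted p = 0.751). MCM4 had the widest range of the 6 MCM2-7 genes, with 94.04, 247.7 and 159.21 FPKM in the controls and 39.65, 219.69 and 417.75 with TP53TG1.

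Although MCM2-7 is assembled from equal numbers of its 6 subunits, the gene sums were unequal: the highest was 6.41 to 8.71 times the lowest within a library. Counting protein-coding transcripts only, that ratio was 2.75 to 4.62. MCM6 was the lowest in every library except TP53TG1 replicate 1, where MCM3 was. MCM2, MCM3, MCM5 and MCM6 spanned 17.86 to 79.6, 11.36 to 67.6, 29.79 to 54.72 and 12.52 to 47.95 FPKM over the 6 libraries, each with its lowest value in TP53TG1 replicate 1 and its highest in TP53TG1 replicate 3. MCM2 overlaps exons of TPRA1 on the opposite strand (mean 39.2 FPKM), and no strand setting is stated, so its reads may be shared.

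CDC45, the GINS complex and MCM10 turn the loaded ring into a moving helicase. CDC45 read 11.47, 22.53 and 18.94 FPKM in the controls and 7.07, 17.65 and 19.87 with TP53TG1. The libraries numbered 1 were the lowest of each group, and the groups overlapped (17.6 ± 5.64 against 14.9 ± 6.84 FPKM, SD, n = 3, limma adjusted p = 0.758). GINS2 read 6.05, 7.58 and 6.62 FPKM in the controls and 5.14, 7.38 and 13.6 with TP53TG1. After scaling its values were 5.41, 6.37 and 5.58 against 8.36, 6.61 and 13.7, which did not overlap, though TP53TG1 replicate 2 was only just above control replicate 2. Its exons also meet those of GSE1 on the opposite strand (mean 13.3 FPKM).

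The other GINS genes were as scarce. GINS1 spanned 3.59 to 15.21 and GINS3 3.48 to 11.48 FPKM. GINS4 read 3.09, 18.0 and 13.98 FPKM in the controls and 1.25, 18.81 and 13.39 with TP53TG1, low in both libraries numbered 1 and nearly level between the groups in the other pairs. MCM10, which helps the helicase leave the origin, read 1.75, 4.33, 3.69, 0.67, 4.09 and 8.92 FPKM in the same order, so TP53TG1 replicate 3 was again highest.

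PCNA, the ring that holds polymerases on DNA, lies on chromosome 20 at 5114953 to 5126626 (GRCh38, minus strand). It read 130.52, 171.79 and 121.42 FPKM in the controls and 72.25, 150.42 and 199.09 with TP53TG1. The group means were both 141 FPKM (SD 26.8 and 64.0, n = 3, limma adjusted p = 0.874), with the extremes in the TP53TG1 group. After scaling the means were 121 and 151, the lowest library was control replicate 3 at 102, and the groups still overlapped. RFC1, the large subunit of the clamp loader, read 11.74, 24.4 and 21.63 against 4.96, 21.64 and 15.02 FPKM. Its difference relative to the all-gene median, -0.24, was the lowest of the 44 (log2 difference -0.59 ± 0.523, SE, n = 3 per group, limma adjusted p = 0.748), and its highest library was a control.

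RFC2 to RFC5, the small loader subunits, spanned 20.23 to 39.4, 2.53 to 10.52, 28.24 to 59.53 and 7.74 to 35.86 FPKM, each lowest in TP53TG1 replicate 1. RFC4 was nearly flat after scaling, between 45.9 and 54.0. Its exons overlap EIF4A2 on the opposite strand (mean 155 FPKM), and those of RFC5 overlap WSB2 (54.4 FPKM).

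Among the polymerase genes POLD2, the second subunit of polymerase delta, was the highest and had the smallest unadjusted p of all members, 0.106 (limma over all genes). It read 158.1, 131.11 and 111.06 FPKM in the controls and 80.6, 95.1 and 111.49 with TP53TG1, so 1 TP53TG1 library stood just above the lowest control. The log2 difference was -0.47 ± 0.262 (SE, n = 3 per group, limma adjusted p = 0.748), or -0.12 relative to the all-gene median. POLD1, the catalytic subunit, spanned 30.3 to 43.2 and POLD3 4.58 to 17.94 FPKM.

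POLA1, the catalytic subunit of polymerase alpha, was the scarcest polymerase gene in all libraries but control replicate 3, with 2.14, 6.49 and 6.64 FPKM in the controls and 0.87, 5.33 and 6.61 with TP53TG1. Its partner POLA2 spanned 20.56 to 35.83 FPKM, and its gene sum did not share the low value of control replicate 1. Its coding transcripts alone were lower there, at 17.3 FPKM against 24.55 and 24.49 in control replicates 2 and 3. The primase genes PRIM1 and PRIM2 spanned 15.46 to 34.83 and 5.45 to 10.39 FPKM. PRIM1 shares exon sequence with NACA on the same strand (mean 1010 FPKM), which makes its level uncertain. POLE, the catalytic subunit of polymerase epsilon, spanned 8.05 to 30.41 FPKM, and its partner POLE2 read 6.46, 10.18, 3.4, 4.51, 6.61 and 9.62 FPKM in the usual order, lowest in control replicate 3.

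FEN1 cuts the flaps of Okazaki fragments and LIG1 seals the nicks. FEN1, on chromosome 11 at 61792637 to 61797244 (GRCh38, plus strand), read 21.87, 31.23 and 21.05 FPKM in the controls and 9.88, 28.71 and 56.42 with TP53TG1. Its value in TP53TG1 replicate 3 was the highest of the 6 and that in TP53TG1 replicate 1 the lowest (24.7 ± 5.66 against 31.7 ± 23.4 FPKM, SD, n = 3, limma adjusted p = 0.949). It overlaps exons of FADS2 and TMEM258 (means 42.9 and 68.3 FPKM). LIG1 read 10.25, 22.86 and 11.55 against 7.98, 18.71 and 19.8 FPKM.

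The RPA genes encode the trimer that coats single-stranded DNA. RPA3, the smallest subunit, read 68.02, 41.68 and 41.4 FPKM in the controls and 41.2, 42.98 and 34.74 with TP53TG1. It was the only member whose lowest FPKM was in TP53TG1 replicate 3, and after scaling both libraries numbered 1 were its highest, at 60.8 and 67.0 (log2 difference -0.30 ± 0.298, SE, n = 3 per group, limma adjusted p = 0.748). RPA2 spanned 13.83 to 32.08 FPKM, and RPA1, the large subunit, only 0.7 to 2.01. RPA1 overlaps SMYD4 on the opposite strand (mean 5.09 FPKM), and its leading transcript was not a coding one, so its low level is uncertain.

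RRM1 and RRM2 form ribonucleotide reductase, TYMS makes thymidylate and TK1 salvages thymidine. TK1 varied least of the 4, with 114.85, 133.38 and 120.78 FPKM in the controls and 95.6, 129.95 and 147.44 with TP53TG1 (123 ± 9.46 against 124 ± 26.4 FPKM, SD, n = 3, limma adjusted p = 0.993). The groups overlapped in FPKM and separated after scaling, where TP53TG1 replicate 1 became the highest. TYMS read 60.81, 108.52 and 75.06 against 41.25, 86.24 and 123.52 FPKM (limma adjusted p = 0.942), and the extremes were both in the TP53TG1 group before scaling, while control replicate 1 was lowest after it. It overlaps ENOSF1 on the opposite strand (mean 34.0 FPKM). RRM1 and RRM2 spanned 13.47 to 65.42 and 7.29 to 60.74 FPKM, and both were low in the libraries numbered 1 of each group.

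**Figure D2:**
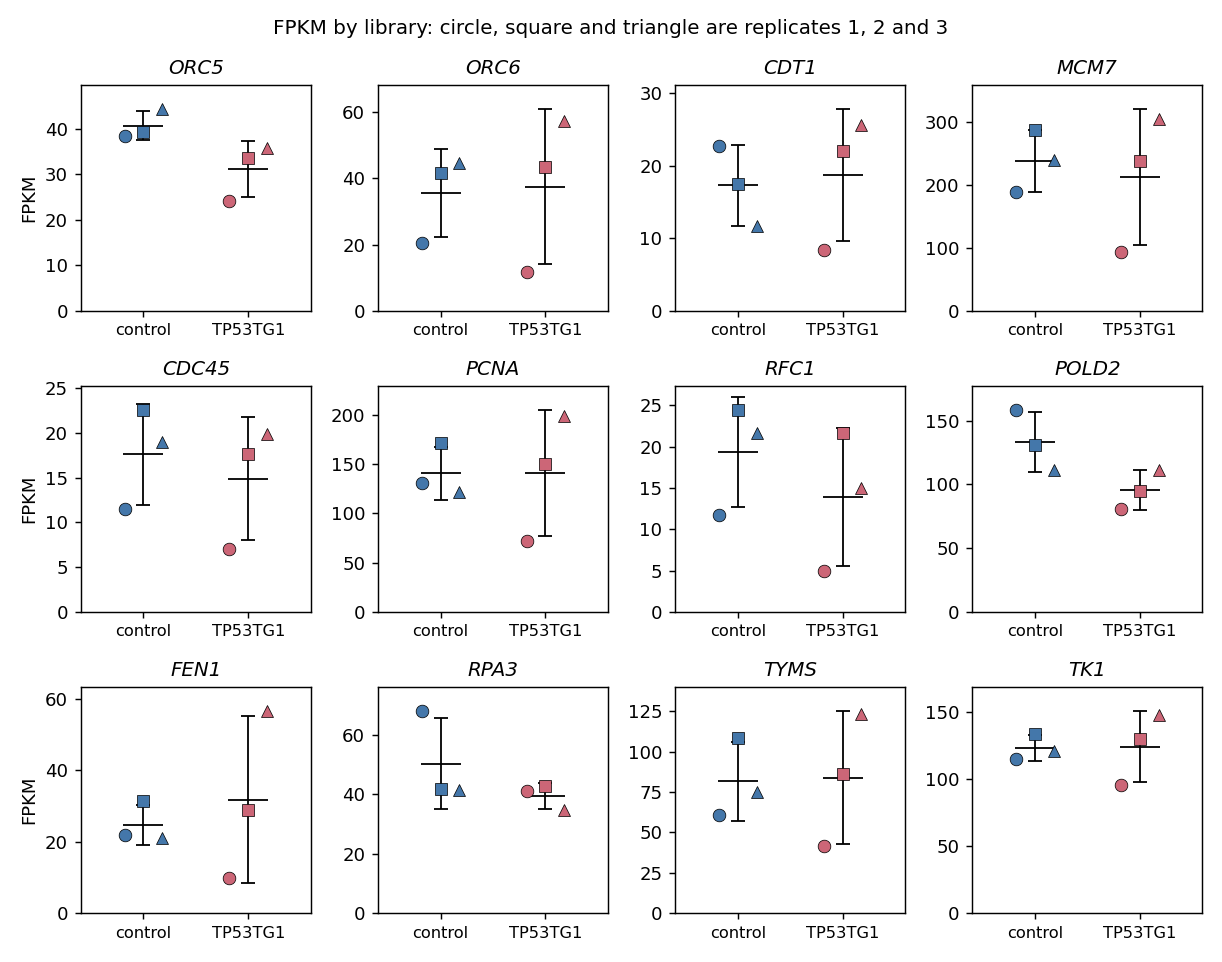
FPKM in each library of the 12 members with the highest mean or smallest p in their role, with the mean and SD of each group (n = 3). In 11 of the panels TP53TG1 replicate 1 (red circle) is the lowest of the 6 points, and the exception is RPA3.

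The 44 genes list 401 transcripts, 319 of them above 0 somewhere, and the leading transcript was protein coding in 40 genes; the exceptions were GINS4, LIG1, MCM7 and RPA1. MCM7 was shared mainly between the coding ENST00000303887, at 57.51, 137.89 and 110.79 FPKM in the controls and 22.11, 120.73 and 154.2 with TP53TG1, and the intron-retaining ENST00000489841, at 123.19, 130.77, 106.61, 70.36, 100.86 and 140.6 in the same order. The coding form was the lower of these in both libraries numbered 1 and the higher in the other 4.

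The coding share of the other members moved both ways. It was lower in both libraries numbered 1 than in any of the other 4 for 9 members, MCM7 included. It was higher for 7, and at 100% throughout for 7, PCNA among them. The same counts were not taken over all tested genes, so they cannot be called particular to the members. Examples, picked after their values were seen, are POLE, at 15.2, 57.5 and 60.4% in the controls and 20.7, 57.7 and 53.0% with TP53TG1, and LIG1, at 11.3, 33.8 and 39.3% against 8.4, 47.7 and 32.3%. RRM1 was at 77.1% in control replicate 1 and 23.3% in TP53TG1 replicate 1, and 93.9 to 97.4% in the other 4. The other way round, RRM2 was at 86.7% in control replicate 1, 100% in TP53TG1 replicate 1 and 52.7 to 59.7% elsewhere, and MCM4 at 75.1 and 77.7% against 52.9 to 66.4%. The median share over the members, 90.4% in control replicate 1 and 90.5% in TP53TG1 replicate 1, lay within the 87.6 to 94.0% of the others. The FPKM-weighted transcript length over all coding genes was 1290 nt in control replicate 1 and 1212 nt in TP53TG1 replicate 1, against 1594 to 1644 nt in the others. Across the 44 members, longer transcripts also stood lower in TP53TG1 replicate 1 relative to the other TP53TG1 libraries (Spearman rho -0.45) and in control replicate 1 relative to the other controls (-0.32), as a description over genes of the same libraries. Whether RNA quality had a part in the low values was not tested.

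**Figure D3:**
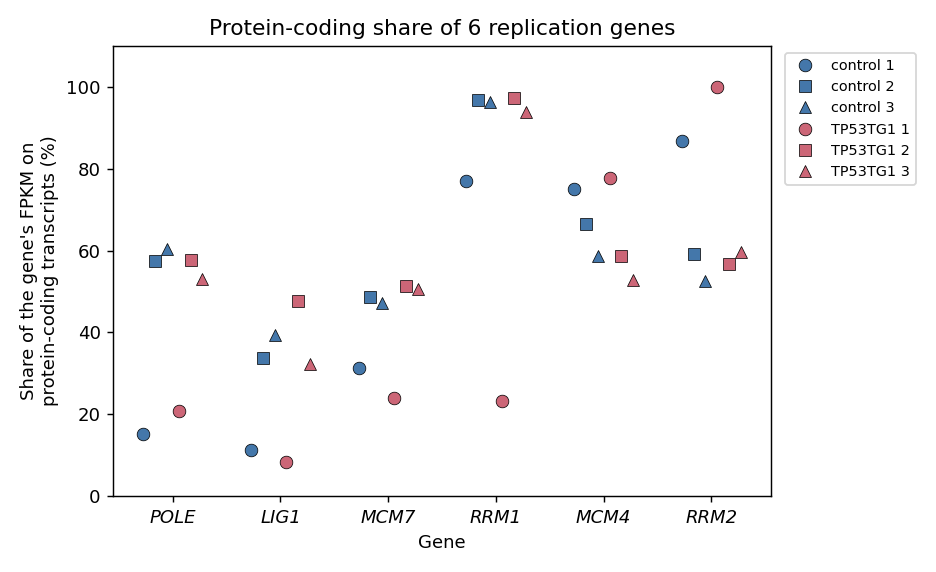
Share of each gene's FPKM assigned to protein-coding transcripts, for 6 members in the 6 libraries (blue, control; red, TP53TG1; circle, square and triangle for replicates 1, 2 and 3). The circles lie lowest for POLE, LIG1, MCM7 and RRM1 and highest for MCM4 and RRM2.

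The libraries numbered 1 deviated together, with a correlation of deviations from the group means of 0.71. Those numbered 2 and 3 correlated in every combination, from 0.289 to 0.562. Deviations cancel out within a group, so the shared deviation of number 1 by itself pushes these values up. TP53TG1 replicate 3 correlated with control replicates 2 and 3 about equally, at 0.302 and 0.289, so these values do not settle its pairing. Each TP53TG1 library was also set against the control of its number after scaling. In the libraries numbered 1, 22 of 44 members were higher with TP53TG1 (47.5% of all tested genes were) and 0 were at least 2-fold higher (4.55%). In those numbered 2 the counts were 21 (44.8%) and 0 (2.89%). In those numbered 3 they were 37 (51.5%) and 11 (4.95%). The median log2 ratio of the members was 0.00, -0.02 and 0.65 in turn, against -0.02, -0.03 and 0.02 over all tested genes. Each is a single library against a single library, with no replicate check. TP53TG1 replicate 3 also had the highest estimated depth, 21200000 fragments, and the lowest median coding share of the members, 87.6% against 90.4 to 94.0% elsewhere, and their part in its values was not tested.

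**Figure D4:**
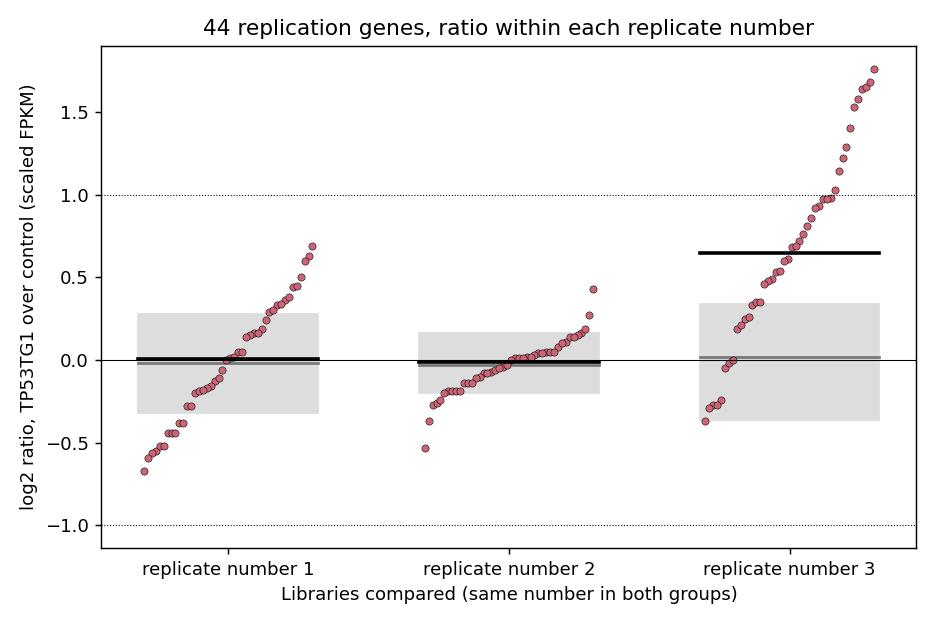
Log2 ratio of scaled FPKM, TP53TG1 over control, for the 44 members (points, sorted) in each replicate number; black lines are their medians, grey boxes and lines the quartiles and median of all tested genes, and dotted lines mark 2-fold. The members centre on 0 in numbers 1 and 2 and on 0.65 in number 3, where 11 pass 2-fold.

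The 11 genes past 2-fold in the libraries numbered 3 came from 7 of the 9 roles. On the log2 scale they were POLE2 at 1.76, FEN1 at 1.68, MCM4 at 1.65, ORC1 at 1.64, CDC6 at 1.58, MCM10 at 1.53, CDT1 at 1.40, GINS2 at 1.29, RRM2 at 1.22, GINS1 at 1.14 and LIG1 at 1.03. The next members, just under 2-fold, were MCM6 at 0.98 and then PCNA and TYMS, both at 0.97. All 6 MCM2-7 genes and all 9 polymerase and primase genes were above 0, with medians of 0.84 and 0.46. POLE2 rests in part on its low control, 3.4 FPKM in control replicate 3 against 6.46 and 10.18 in the others.

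The 7 members below 0 were ORC2 at -0.24, ORC3 at -0.27, ORC4 at -0.29, ORC5 at -0.05, RFC1 at -0.27, RPA1 at -0.37 and RPA2 at -0.02. RPA3 rounded to 0.00 and is counted among the 37 higher members. In this single pair ORC1 and ORC6 were thus above 0 and ORC2 to ORC5 below it, and RFC1 was the only loader subunit below 0. The origin complex pattern did not recur in the other pairs. In the libraries numbered 1 ORC1 was at -0.55 and ORC5 at 0.19. In those numbered 2 ORC2, ORC3 and ORC4 were above 0, at 0.01, 0.04 and 0.08. Of the members with a promoter window, the E2F-type motif stood in 12 of 32 above 0 (37.5%) and in 1 of 6 at or below 0, ORC3. It stood in 3 of 10 members past 2-fold (30.0%) and in 10 of 28 other members (35.7%).

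Genes that act beside the machinery were read from 5 lists of related genes. None of the lists had a gene that passed, without or with the replicate block (limma, Benjamini-Hochberg). Among 16 regulators of licensing and firing the median log2 ratio in the libraries numbered 3 was 0.38, and 4 were past 2-fold: RECQL4, DONSON, DTL and SKP2. Among 28 other fork proteins it was 0.36, again with 4 past 2-fold, led by CLSPN, the claspin checkpoint adaptor, at 2.15 and UHRF1, which reads hemimethylated DNA, at 1.44. Among 14 other deoxynucleotide genes it was 0.24 with 0 past 2-fold.

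The widest range was in 23 genes of the E2F and cyclin list, from -1.53 for TFDP2 to 2.44 for CCNE2, with a median of 0.39 and 13 of 23 above 0. CCNE2, a cyclin E gene that acts at the start of S phase, read 2.49, 5.03 and 2.41 FPKM in the controls and 0.29, 5.51 and 10.97 with TP53TG1, so the extremes lay within the TP53TG1 group. CDC25A, the phosphatase that activates cyclin E kinase, was at 1.90, E2F8 at 1.79, CCNE1 at 1.56 and E2F1 at 1.20. In the libraries numbered 1 these genes were at -1.29, -0.76, -0.04 and -3.56, and in those numbered 2 at 0.64, -0.12, 0.79 and -0.75. CDC25A, E2F8 and E2F1 read only 0.4, 0.29 and 0.15 FPKM in TP53TG1 replicate 1. Other E2F genes were below 0 in the libraries numbered 3, E2F7 at -0.94, E2F5 at -0.66 and E2F3 at -0.37. In the libraries numbered 3 the kinase inhibitor CDKN1B was at -0.93. It read 24.9, 27.73 and 37.95 FPKM in the controls and 15.06, 28.26 and 16.71 with TP53TG1 (limma adjusted p = 0.748). CDKN1A, the p53 target that encodes p21, was at -0.60, while the kinase inhibitor CDKN2C was at 0.71.

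Among 23 mitotic and proliferation genes the median was 0.13, the range -0.55 to 0.57 and 0 were past 2-fold. MKI67 was at 0.09 and CCNB1, the cyclin of mitotic entry, at 0.19. The difference between the mitotic list and the replication genes rests on a single pair of libraries and was not tested.

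By smallest unadjusted p the leading related genes were DDB1, LRWD1 and CUL4A; CHTF8, ASF1A and LIG3; DCTD, DTYMK and TK2; CDKN1B, E2F5 and RBL2; and CENPA, CKS2 and CCNB2. All had an adjusted p of 0.748 (limma) and a lower mean with TP53TG1 in FPKM. Unscaled differences were below 0 over all tested genes too, with a median of -0.35. Relative to that median the named genes ran from -0.28 for RBL2 to 0.09 for LRWD1. DTYMK, which makes thymidine diphosphate, was at 66.8 ± 0.656 FPKM in the controls and 53.1 ± 3.52 with TP53TG1 (SD, n = 3). Its groups did not overlap in FPKM, and 13.3% of all tested genes were likewise lower in every TP53TG1 library. Relative to the all-gene median it was at 0.02, and in scaled FPKM TP53TG1 replicate 1 was above its control.

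**Figure D5:**
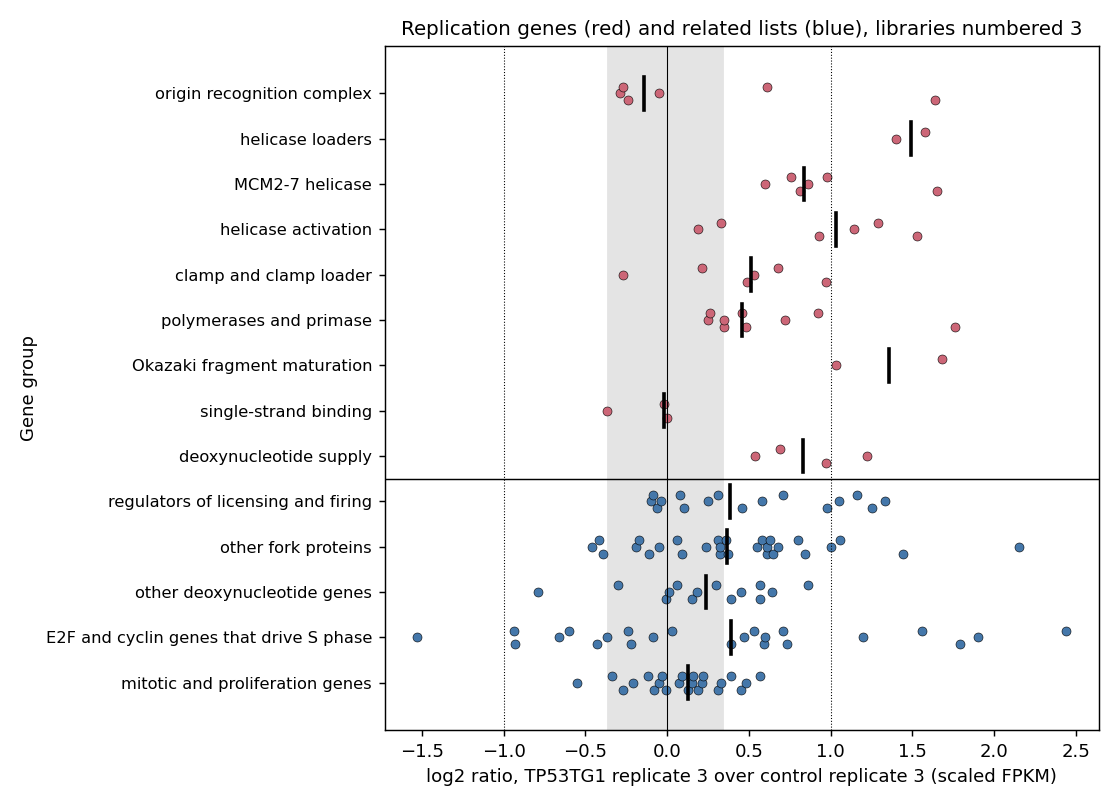
Log2 ratio of scaled FPKM, TP53TG1 replicate 3 over control replicate 3, for each member by role (red) and for 5 related lists (blue); black bars are medians, the grey band spans the quartiles of all tested genes and dotted lines mark 2-fold. The helicase loaders centre on 1.49 and MCM2-7 on 0.84, the origin recognition complex on -0.14, the RPA genes on -0.02 and the mitotic list on 0.13.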

How the data were processed

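The 6 libraries (TruSeq, total RNA) were deposited by the authors as FPKM per transcript. The submitters' processing notes name HISAT2, StringTie and the build GRCh38.p10. Tool versions and the strand setting were not given in the sources used here. FPKM was identified as the unit from the values. Blank gene names were filled by transcript identifier and transcripts were summed per gene. Groups and replicate numbers came from the sample titles. After dropping genes whose mean was under 1 FPKM, the rest were fitted with limma 3.58.1 (trended eBayes) on log2(FPKM + 1), so low genes' changes are understated. The threshold was a Benjamini-Hochberg adjusted p under 0.05 over all tested genes, without a block. Scaling divides by median-of-ratios factors. Members, roles and related lists were chosen with earlier results of these data known. Named in full were the member with the highest mean and that with the smallest p in each role; from each related list, the 3 with the smallest p. Other related genes were picked after their values were seen.

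Same-numbered libraries had correlations of deviations from the group means of 0.710, 0.562 and 0.289, all above 0.1. However, control replicate 3 correlated more with TP53TG1 replicate 2 (0.400), and TP53TG1 replicate 3 slightly more with control replicate 2 (0.302). By the limit of 0.1 the replicate numbers were taken as pairing, but that limit could not tell number 2 from number 3. Deviations cancel out within a group, so the shared deviation of number 1 pushes every combination of numbers 2 and 3 upward. Passing the limit therefore gives no support for pairing within numbers 2 and 3. Their pairing comes from the shared numbers only, and that of number 1 also from the data. None comes from a stated batch or day. The fit was tested on simulated data. Depth was estimated from the lowest non-zero values of single-transcript genes and is approximate. Gene types, exons and overlaps came from GENCODE 29 and promoter sequences from RefSeq (GRCh38.p14).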

Additional observations from a re-analysis of the deposited data

How the results depend on the processing

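No replication gene and no related gene passed under any of the 16 other settings of the limma fit. Over all genes, 1 passed as reported, 0 to 1 with each library left out in turn, 0 with no filter on low values, 2 with a mean of at least 5 FPKM, 2 after median-of-ratios scaling, 192 with the replicate block, 6 with the replicate block and scaling, 10 without both libraries numbered 1 and scaled, and 3 without both numbered 3 (the last 2 settings were added after seeing the data). The replicate block changed no call of a member.

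The count of members lower in every TP53TG1 library was 2, 0 after median-of-ratios scaling, with or without the block, or with the same total per library, 5 without both libraries numbered 1 (35.6% of all genes), 1 when those were also scaled (17.6%), 5 without both numbered 3 (28.8%), and 2 to 5 with each library left out (18.3 to 30.5%). The count of higher members was 0, 4 after scaling with or without the block, 4 without both libraries numbered 1 (6.57% of all genes), 15 when those were also scaled (15.1% of all genes), and 0 to 3 with each library left out (0.547 to 3.48%). Of the 44, 37 lay above the all-gene median, 23 with no filter, 19 without both numbered 3 and 21 to 39 with each library left out; the median gap of 0.24 ranged from -0.03 to 0.43. In the libraries numbered 3, 8 to 11 members were past 2-fold and 33 to 37 were higher under other scalings or with coding transcripts only, and 24 to 32 were highest in TP53TG1 replicate 3.

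Relative log2 differences changed sign for most named members, none of them past the threshold. With no filter MCM7 was at -0.18, CDC45 at -0.17 and RPA3 at -0.17. ORC5 was at 0.01 with a pseudocount of 0.1 and with scaling, blocked or not. Without both libraries numbered 3, CDT1 was at -0.10, MCM7 -0.23, CDC45 -0.07, PCNA -0.10, FEN1 -0.18 and TYMS -0.02. With each library left out the ranges were -0.11 to 0.03 for ORC5, -0.12 to 0.67 for ORC6, -0.23 to 0.31 for MCM7, -0.19 to 0.25 for CDC45, -0.52 to 0.09 for RFC1, -0.26 to 0.03 for POLD2, -0.06 to 0.82 for FEN1 and -0.22 to 0.30 for RPA3. TK1 stayed above 0 under all settings. The causes were not tested. Depth limits the scarcest members: RPA1 rests on about 23.0 fragments in TP53TG1 replicate 1.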
